A study of Mus musculus with 2 samples.

Results

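Follicular helper T (Tfh) cells were taken from 2 single-cell RNA libraries of mouse T cells by a gate on their own transcripts. A cell barcode was a member if it held at least 1 UMI (unique molecular identifier, a counted RNA molecule) of Cxcr5, at least 1 of Pdcd1 or Bcl6 and at least 1 of the CD3 genes Cd3d, Cd3e and Cd3g. It also had to lack UMIs of Trdc, the constant segment of the γδ T cell receptor, and of the B cell gene Cd79a. Among the 6859 barcodes kept from both libraries, 451 were members, of which 136 came from the control and 315 from the Id2-deficient library. They are called gated cells below. They were set against 3202 control and 865 Id2-deficient cells that held CD3 UMIs and no Trdc, Cxcr5, Pdcd1 or Bcl6 UMI, called ungated cells. The values that chose the gated cells, those of Cxcr5, Pdcd1, Bcl6, the CD3 genes, Trdc and Cd79a, are given as a description only.

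Both libraries held CD4+YFP+ cells sorted from mice at the peak of experimental autoimmune encephalomyelitis, a disease used to model multiple sclerosis, induced with a MOG myelin antigen in complete Freund's adjuvant. The control mice were Il17Cre/R26YFP and the Id2-deficient mice Il17Cre/Id2f/f/R26YFP. Cre was driven from Il17 in both, so YFP marks cells that have expressed Il17 at some time, and Id2 can be lost only in such cells. The sources used here do not give the mice per library or the floxed exons, and the labels name the spleen, the lymph node or both, depending on the field. With 1 library per genotype, no difference between genotypes has a replicate check, no p-value was computed, and every 95% interval covers counting error only.

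Tfh cells enter B cell follicles along the chemokine gradient read by Cxcr5, and there help B cells make antibody through contact and through interleukin 21 and interleukin 4. The transcription repressor Bcl6 sets up this programme and opposes Prdm1 (Blimp-1), while the receptor PD-1, encoded by Pdcd1, restrains signalling and helps to hold the cells in the follicle. E proteins are transcription factors that bind the short DNA motif called an E-box. Id2 and Id3 pair with them and keep them off DNA, and in T cells this axis is known to bear on the choice between Tfh and other helper fates.

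Summed counts came to 33646845 UMIs over 4937 barcodes for the control and 14668624 over 2459 for the Id2-deficient library, and to 857716 and 2698755 UMIs over their gated cells. The depth of a gated cell ran from 1062 through a median of 4795 to 36494 UMIs in control mice, and from 1755 through 6813 to 38880 UMIs in Id2-deficient mice. The ungated cells had medians of 5367 and 6105 UMIs. Mitochondrially encoded (mt-) genes gave 2.34% and 4.62% of the UMIs of the median control and Id2-deficient gated cell, against 1.71% and 4.05% in ungated cells. Of the 3 barcode sequences that occur in both libraries, 0 belonged to gated cells. Levels below are UMIs summed over the cells of a group per 1000000 UMIs of that group (CPM).

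The label was checked first against the markers that the gate did not use. Il21, the follicular helper cytokine, stood at 103 CPM in control gated cells (95% Poisson interval 82.3 to 126) and 132 CPM in Id2-deficient gated cells (119 to 147). In ungated cells it stood at 4.10 CPM in the control and 20.9 CPM in the Id2-deficient library. The log2 ratio of gated over ungated cells was thus 4.65 in the control, an exact conditional interval of 18.4-fold to 34.1-fold, and 2.66 in the Id2-deficient library, 6.32-fold (5.13 to 7.84). Sostdc1, a secreted antagonist of BMP and Wnt signals, stood at 52.5 and 51.9 CPM in control and Id2-deficient gated cells against 0.143 and 1.74 CPM in ungated cells. Few cells carried it, 10 of 136 and 27 of 315, and 1 control cell held 57.8% of the control UMIs. Il4 stood at 97.9 and 73.4 CPM in gated cells and at 1.33 and 3.84 CPM in ungated cells. Ascl2, a transcription factor that raises Cxcr5, stood at 45.5 and 39.6 CPM against 0.714 and 0.697 CPM.

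**Figure D1:**
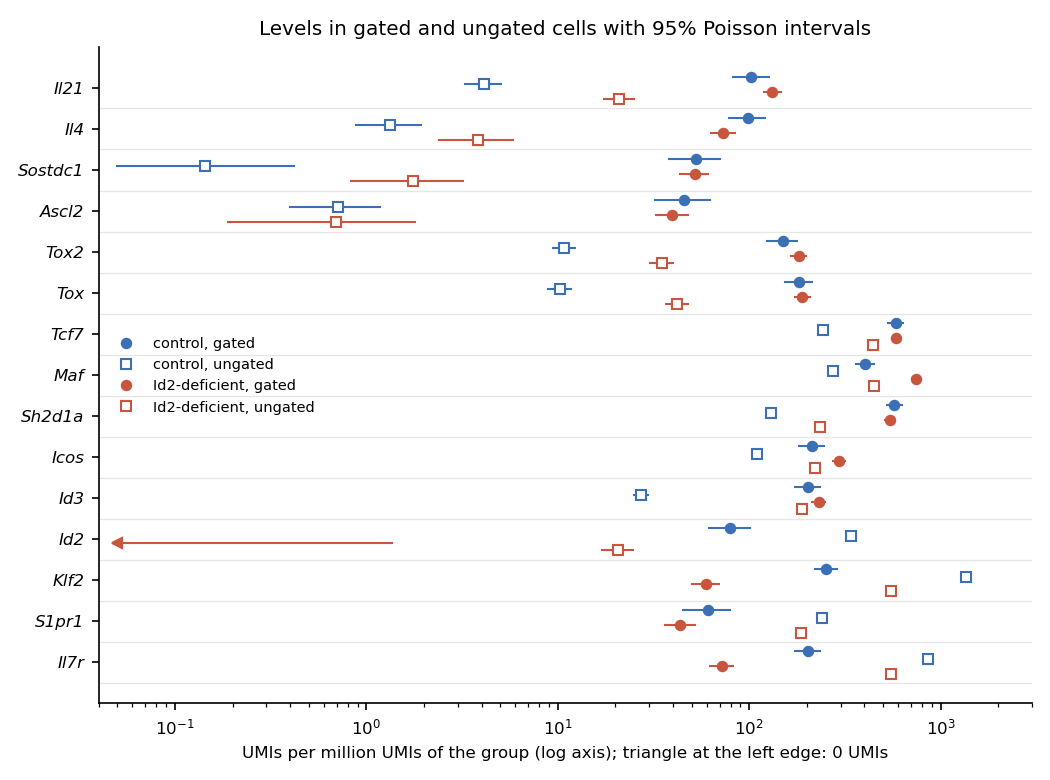
Levels of 15 genes in CPM, on a log axis, in gated cells (filled circles) and ungated cells (open squares) of the control (blue) and Id2-deficient library (red), with 95% Poisson intervals of counting error. The circles of both colours lie close together and to the right of the squares for Il21, Il4, Sostdc1, Ascl2, Tox and Tcf7, and to the left of the squares of their own library for Klf2, S1pr1 and Il7r. The arrow marks 0 Id2 UMIs.

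The 10 further markers taken for Tfh cells were Il21, Sostdc1, Icos, Sh2d1a, Cd200, Tox2, Ascl2, Maf, Tcf7 and Slamf6. The median control gated cell held UMIs of 5 of them (range 1 to 9) and the median Id2-deficient gated cell 6 (range 2 to 10), against 3 and 4 in ungated cells. After every cell was thinned to 2000 UMIs, 61.9% of 134 control and 78.0% of 313 Id2-deficient gated cells still held 3 or more of these markers. So did 16.3% of 3186 control and 42.9% of 855 Id2-deficient ungated cells. The gate therefore drew cells in which more of these markers occurred together than in ungated cells. Some of the 10 were broad. At 2000 UMIs Tcf7 was seen in 36.5% and 55.8%, and Maf in 37.1% and 49.6%, of control and Id2-deficient ungated cells. Others were seen in fewer gated cells, with Il21 in 20.1% and 18.5%, Ascl2 in 9.70% and 7.35% and Sostdc1 in 5.97% and 5.75%. Thinning left out 2 gated cells of each library.

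**Figure D2:**
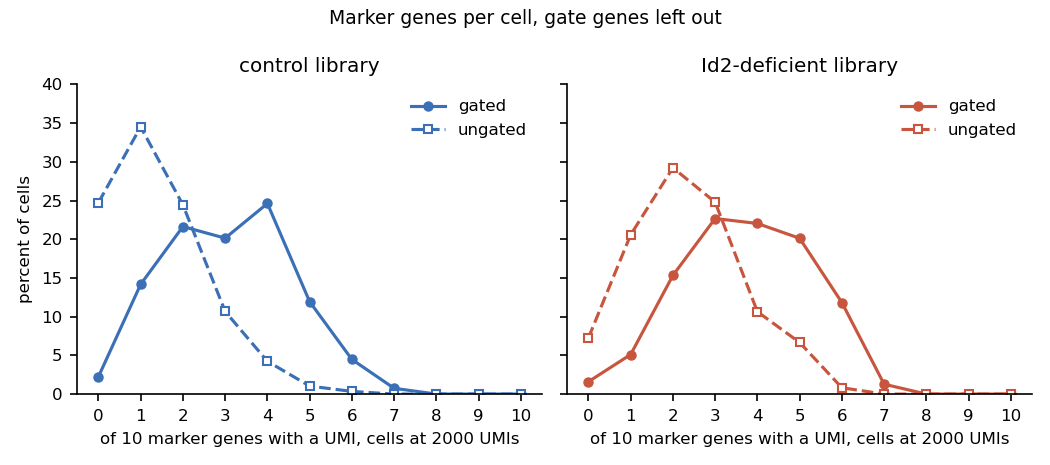
Percent of cells (vertical axis) by how many of 10 Tfh markers outside the gate had a UMI after thinning to 2000 UMIs (horizontal axis), for gated (filled, solid) and ungated cells (open, dashed) of each library. The gated curves peak at 3 to 4 markers, and the ungated curves at 1 marker for control and 2 markers for Id2-deficient cells.

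The targeted gene, Id2 (ENSMUSG00000020644, chromosome 12, 25093799 to 25097140, minus strand, GRCm38), gave 68 UMIs in 37 of the 136 control gated cells, or 79.3 CPM. It gave 0 UMIs in the 315 Id2-deficient gated cells. With 3 counts over the group as the floor for a count of 0, Id2 was at least 71.3-fold lower in Id2-deficient than in control gated cells. In ungated cells it stood at 340 CPM in the control and 20.6 CPM in the Id2-deficient library, 16.5-fold lower. Within the control, where Id2 was intact in the labels, gated cells held 4.29-fold less Id2 than ungated cells (3.38 to 5.54). Low Id2 thus went with the gate also in mice that had not lost the gene.

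The gate itself was met in unequal ways. Among control gated cells 57.4% held Pdcd1 and no Bcl6 UMI, 13.2% Bcl6 and no Pdcd1 UMI, and 29.4% both. Among Id2-deficient gated cells the shares were 48.6%, 13.0% and 38.4%. Cxcr5 stood at 250 and 252 CPM, Pdcd1 at 365 and 308 CPM, and Bcl6 at 107 and 108 CPM in control and Id2-deficient gated cells. These are the genes the cells were chosen by, so their likeness between libraries is partly set by the choice. Just inside the threshold, with 1 Cxcr5 UMI and 1 Pdcd1 or Bcl6 UMI, lay 37 control and 57 Id2-deficient cells, in which Il21 stood at 69.9 and 37.3 CPM and Klf2 at 529 and 141 CPM. Just outside it, cells with Cxcr5 and neither of the others numbered 132 and 253, with Il21 at 38.6 and 51.8 CPM and Klf2 at 775 and 239 CPM. Cells with Pdcd1 or Bcl6 and no Cxcr5 UMI numbered 444 and 281, with Il21 at 24.7 and 71.2 CPM and Klf2 at 747 and 233 CPM. In Id2-deficient cells Il21 was lower just inside the threshold than just outside it. The cells around the threshold lay between the other gated cells and the ungated cells for these 2 genes, and the gate is a range rather than a border between types.

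Gated cells made up 3.49% of 3895 control cells with CD3 and no Trdc or Cd79a UMI (Clopper-Pearson interval 2.94% to 4.12%). They made up 18.5% of 1706 such Id2-deficient cells (16.6% to 20.4%). The share was 5.29 times as high in the Id2-deficient library, and the intervals cover the counting error of cells only, not differences between mice or libraries. After thinning to 2000 UMIs, with the gate applied to the thinned counts, the shares were 1.16% and 5.38%, a ratio of 4.63, and at 1000 UMIs they were 0.385% and 1.76%, a ratio of 4.58. This is a share of sorted YFP+ cells in 1 library per genotype, so more gated cells and fewer other cells in the sort cannot be told apart.

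Cells that the gate leaves out were read for the same UMIs. Among cells without CD3, Trdc and Cd79a UMIs, 0 of 88 control and 0 of 15 Id2-deficient cells held a Cxcr5 UMI. That allows shares of up to 3.41% and 20%, at median depths of 3695 and 1660 UMIs. Cells with a Trdc UMI are T cells of the same sort, and whether they express the gate's genes themselves was not tested. Among cells with a Trdc UMI, the Cxcr5 UMI and the Pdcd1 or Bcl6 UMI occurred together in 5 of 880 control cells (0.568%) and 6 of 168 Id2-deficient cells (3.57%, interval 1.32% to 7.61%). A Cxcr5 UMI alone was seen in 0.795% and 7.14% of these cells, whose median depths were 5807.5 and 7657.5 UMIs, against 6.88% and 33.3% of the CD3 cells. Both shares of gated cells lay above their library's share of Trdc cells with the same UMIs. The share among Trdc cells was also higher in the Id2-deficient library, and the part of free RNA in it was not tested.

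**Figure D3:**
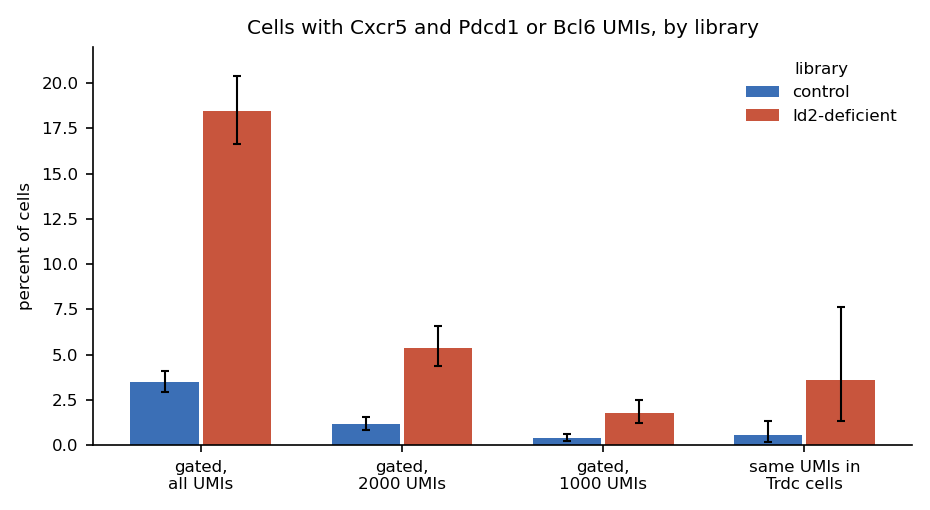
Percent of cells in the gate with 95% Clopper-Pearson intervals (vertical axis), in the control (blue) and Id2-deficient library (red), with all UMIs and after thinning to 2000 and 1000 UMIs. The last pair of bars gives Trdc cells with the same Cxcr5 and Pdcd1 or Bcl6 UMIs, at 0.568% and 3.57%, below the gated shares of 3.49% and 18.5%.

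The control library also allowed the gate to be read against Id2 from cell to cell. Of 1420 control CD3 cells with no Id2 UMI 6.97% were gated (interval 5.70% to 8.42%), and of 2475 with an Id2 UMI 1.49% were (1.05% to 2.05%). After thinning to 2000 UMIs the shares were 1.65% of 2360 cells and 0.398% of 1509 cells, and 0 of 608 cells with 2 or more Id2 UMIs were gated, which allows a share of up to 0.493%. Gated cells were thus more frequent among cells without Id2 RNA at equal depth. In the Id2-deficient library 43 CD3 cells held an Id2 UMI and 0 of them were gated, which allows a share of up to 6.98% at these depths, while 18.9% of the other 1663 were gated.

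Gated and ungated cells were then compared over all genes within each library. A gene was measured when its pooled level gave at least 10 expected UMIs in each group, and it is called higher or lower at a ratio of at least 2-fold. In the control, 284 of 6749 measured genes were higher in gated cells (4.21%) and 383 were lower (5.67%). In the Id2-deficient library, 561 of 9406 were higher (5.96%) and 398 lower (4.23%). The median log2 ratio over all measured genes was 0.12 and 0.13. A scaling by the trimmed mean takes that shift away and leaves 207 higher and 452 lower genes in the control, and 436 and 477 in the Id2-deficient library.

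The 12 genes that stood highest in both libraries, by the smaller of their 2 ratios, were Tox, Tox2, Gm14718, Ikzf2, Asb2, Lpp, Cxcr4, Ptpn11, Endod1, Scd2, Zfpm1 and Hif1a. Tox and Tox2 are related DNA-binding proteins of Tfh and chronically stimulated T cells. Tox stood at 182 CPM in control gated and 10.2 CPM in control ungated cells, 17.8-fold higher (14.4 to 21.9), and at 189 CPM in Id2-deficient gated cells, 4.51-fold higher (3.86 to 5.27) than in ungated ones. Tox2 was 13.9-fold and 5.22-fold higher. Ikzf2, which encodes the transcription factor Helios, was 8.76-fold and 5.97-fold higher. Foxp3, the factor that defines regulatory T cells, gave 0 UMIs in all 451 gated cells. That allows shares of up to 2.21% of control and 0.952% of Id2-deficient gated cells. Foxp3 was also rare in ungated cells, seen in 1.62% of control and 1.16% of Id2-deficient ones. Hif1a, the oxygen-responsive transcription factor, was 3.64-fold and 3.31-fold higher, at 742 and 758 CPM in gated cells. Cxcr4, the chemokine receptor that draws cells to the dark zone of germinal centres, was 5.22-fold and 4.49-fold higher. Ptpn11, the phosphatase SHP-2 that acts below PD-1, was 4.86-fold and 4.56-fold higher. The noncoding RNA Gm14718, which lies on chromosome X close to Cd40lg, was 16.3-fold and 6.79-fold higher.

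Genes of which 1 cell held 10% or more of the UMIs of a library's gated cells were left out of both rankings, which removed Klf2, S1pr1 and Il7r from the low end. The 12 lowest genes that remained were Runx3, Selplg, Klf6, Stk38, Riox2, Gbp8, Dipk1a, Cxcr6, Sorl1, Txnip, Ier2 and 9930111J21Rik2. Selplg, the ligand PSGL-1 by which T cells roll on selectins, stood at 115 CPM in control gated and 385 CPM in control ungated cells, 3.33-fold lower, and was 4.20-fold lower in the Id2-deficient library. Runx3, a factor of cytotoxic and Th1 cells, was 3.96-fold and 2.65-fold lower. Cxcr6, a receptor of tissue-homing effector cells, was 2.88-fold and 2.20-fold lower.

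**Figure D4:**
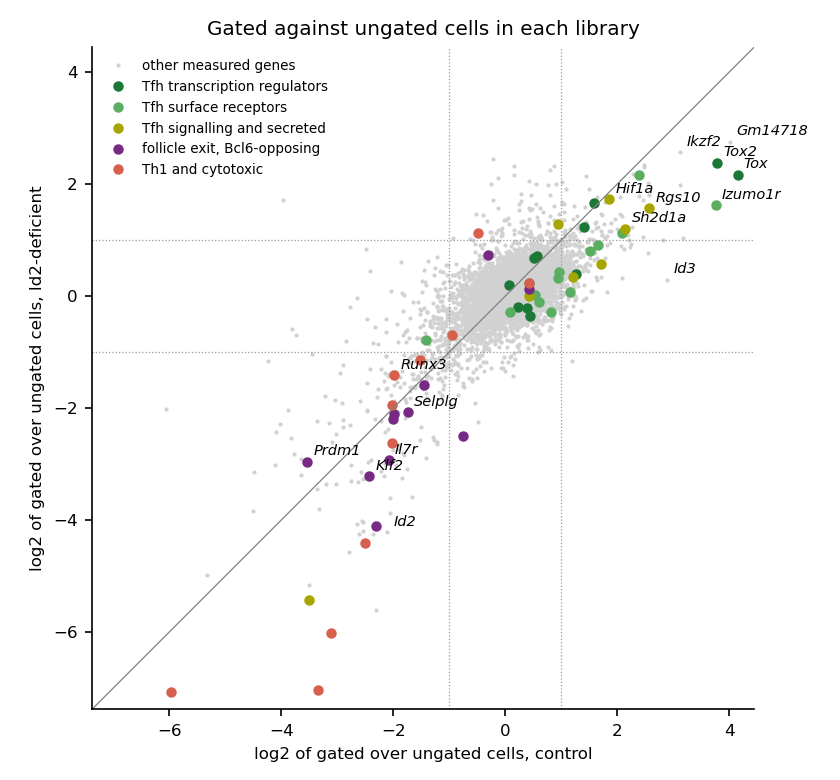
The log2 ratio of gated over ungated cells in the control (horizontal axis) and Id2-deficient library (vertical axis) for genes measured in both, with 5 gene lists in colour and dotted lines at 2-fold. Genes without a UMI in a group, such as Id2 in Id2-deficient gated cells, sit at a floor of 3 counts. Tfh lists lie mostly to the right of and below the diagonal, and the follicle exit and Th1 lists toward the lower left.

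The Tfh lists were read by the role of their members. Over all measured genes 4.21% were higher and 5.67% lower in control gated cells, and 5.96% and 4.23% in Id2-deficient gated cells. All list counts of gated against ungated cells below are to be read beside these shares. Of the transcription regulators, 5 of 11 measured were higher and 0 lower in control gated cells (median log2 ratio 0.56), and 8 of 17 higher and 1 lower in Id2-deficient gated cells (0.73). Tcf7, which encodes TCF-1 and acts before Bcl6, was 2.39-fold higher in the control (582 against 243 CPM) and 1.32-fold higher in the Id2-deficient library (587 against 445 CPM). Maf, which drives Il21 and Il4, was 1.48-fold and 1.65-fold higher, short of the 2-fold line. Bach2, a repressor of effector programmes, was the member called lower in the Id2-deficient library, at 6.67 against 13.4 CPM. Of the surface receptors, 6 of 14 were higher and 1 lower in the control and 7 of 18 higher and 0 lower in the Id2-deficient library. Izumo1r, the folate receptor FR4, stood at 392 against 28.9 CPM in the control and 339 against 109 CPM in the Id2-deficient library. Icos, the costimulator that Tfh cells depend on, was 1.94-fold and 1.34-fold higher.

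Help to B cells is passed on by a small set of cytokines and ligands. Of these, 3 of 4 measured were higher in control gated cells and 4 of 6 in Id2-deficient gated cells, and 0 were lower in either. Tnfsf8, the ligand of CD30, stood at 379 against 107 CPM in the control and 540 against 255 CPM in the Id2-deficient library. Cd40lg, the CD40 ligand, was 2.05-fold higher in the control (185 against 90.5 CPM) and 1.52-fold higher in the Id2-deficient library. Of the signalling and secreted list, 5 of 8 and 9 of 13 were higher. Sh2d1a, which encodes the adaptor SAP that Tfh cells need for contact with B cells, was 4.43-fold and 2.31-fold higher. Rgs10, a regulator of G protein signals, stood at 1223 against 206 CPM in the control and 1025 against 346 CPM in the Id2-deficient library. Plac8 went the other way, with 5 UMIs in control and 2 in Id2-deficient gated cells.

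Genes that oppose Bcl6 or lead cells out of follicles stood low in both libraries. Of 11 measured, 8 were lower and 0 higher in control gated cells (median log2 ratio -1.99), and 9 were lower and 0 higher in Id2-deficient gated cells (-2.20). Klf2, the factor that keeps S1pr1 on, stood at 253 against 1358 CPM in the control and 59.3 against 550 CPM in the Id2-deficient library, and 1 cell held 19.8% of its UMIs in control gated cells. S1pr1, the egress receptor, was 3.97-fold and 4.27-fold lower. Il7r, the interleukin 7 receptor, was 4.22-fold and 7.64-fold lower. Prdm1 gave 1 UMI in control and 4 UMIs in Id2-deficient gated cells, and stood at 13.5 and 11.5 CPM in ungated cells.

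Th1 and cytotoxic genes stood low in gated cells, while the Th17 genes went both ways. Of the Th1 and cytotoxic list 11 of 15 measured genes were lower in the control and 8 of 11 in the Id2-deficient library, with 0 and 1 higher. The chemokine gene Ccl5 gave 6 UMIs in control and 2 UMIs in Id2-deficient gated cells, and stood at 438 and 99.9 CPM in ungated cells. Of the Th17 list 7 of 15 and 7 of 19 were lower, with 2 higher in each library. The list summed to 1714 CPM in gated against 2368 CPM in ungated control cells, and to 1984 against 1896 CPM in the Id2-deficient library. Il22, the cytokine of Th17 and innate cells, was seen in 14.0% of control gated and 3.56% of ungated cells, and in 16.5% and 8.79% in the Id2-deficient library. Its level was 1.12-fold higher (0.738 to 1.64) in control and 5.03-fold higher in Id2-deficient gated than ungated cells. However, 1 cell held most of the Il22 UMIs of the control ungated cells, so the control ratio rests largely on that cell. At 2000 UMIs Il22 was seen in 5.97% of gated and 1.41% of ungated control cells, and in 8.63% and 3.27% in the Id2-deficient library. A UMI of Il17a or Il17f was seen in 0 of 136 control gated cells, which allows up to 2.21% of cells with such a UMI, and in 4.72% of ungated cells. At 2000 UMIs it was 0 of 134, allowing 2.24%, and 1.57%, so no difference was detectable at equal depth. In the Id2-deficient library 3.81% of gated and 5.09% of ungated cells held one. Tmem176b, an ion channel gene of Th17 cells, was 3.20-fold and 2.08-fold lower. Of the migration and adhesion list 9 of 17 and 8 of 17 genes were lower and 1 of 17, Cxcr4, was higher in each library.

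Other lists gave mixed counts, some of them of few genes. The shares over all genes were 4.21% higher and 5.67% lower in the control, and 5.96% and 4.23% in the Id2-deficient library. Of the regulatory T cell list 3 of 9 measured genes were higher and 3 lower in control gated cells, and 2 and 3 of 9 in Id2-deficient gated cells, with Il2ra among the lower and Ikzf2 among the higher. Of the inhibitory receptor list 3 of 5 and 5 of 8 were higher. Tox, a DNA-binding protein and no receptor, is in this list and among the higher in each library. It was also counted with the transcription regulators. Of the glycolysis genes 2 of 20 were higher and 3 lower in the control, and 3 of 23 higher and 1 lower in the Id2-deficient library. Of the interferon response genes 2 of 18 were higher and 1 lower in control gated cells, and 0 of 23 higher and 7 lower in Id2-deficient gated cells. Ifit3, an antiviral effector, stood at 5.93 CPM in Id2-deficient gated and 37.3 CPM in ungated cells. Of the cell cycle genes 1 of 28 was higher in control gated cells and 14 of 30 in Id2-deficient gated cells, where 1 was lower. Tk1, a thymidine kinase of S phase, was 4.16-fold higher in Id2-deficient gated than ungated cells, and Mcm3, Mcm5, Mcm6, Tyms, Rrm1 and Rrm2, genes of DNA replication named after their values were seen, were also among the 14. These counts depended on depth. With ungated cells weighted to the depth of the gated cells, the median log2 ratio of the cell cycle list in the Id2-deficient library turned from 0.98 to -0.50. Tk1 then stood at a log2 ratio of 0.42, Mcm3, Mcm5, Mcm6, Tyms and Rrm1 at 0.20 to 0.80, and Rrm2 and Mki67 at -0.24 and -0.66. The 1 in the control was Ube2c, of whose 155 UMIs 1 cell held 41.9%. Mki67, a marker of cycling cells, was seen in 12.5% of control and 17.8% of Id2-deficient gated cells against 13.0% and 9.13% of ungated cells. With the same cells thinned to 2000 UMIs, it was seen in 5.22% and 7.67% of gated against 5.68% and 3.39% of ungated cells.

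A filter on expected UMIs passes over genes that only the small gated group carries, so such genes were looked up separately, after their values had been seen. Among genes seen in 10% or more of the gated cells of each library, 170 missed the filter in at least 1 of the 2 comparisons. A gene picked in this way was seen in gated cells and is rare elsewhere, so the choice fixes its direction and the values are a description. Those at 8-fold or more in both libraries were Ascl2, Cxxc5, Mei1, Cebpa, Il4, Ier5l, Krt83, Cd160, Nrgn, Rgs16 and Fam43a. Cebpa, a transcription factor best known from myeloid cells, gave UMIs in 27 of 136 control and 83 of 315 Id2-deficient gated cells, at 53.6 and 77.4 CPM, against 1.10 and 3.66 CPM in ungated cells. Cxxc5, a zinc finger protein, stood at 45.5 and 42.2 CPM against 0.524 and 1.22 CPM. Krt83, a keratin gene, stood at 99.1 and 101 CPM against 6.57 and 4.53 CPM. Cd160, an inhibitory receptor, stood at 66.5 and 63.7 CPM against 5.33 and 4.71 CPM.

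Promoters are shown for Il21 and Ascl2 as members that ungated cells carried little of and whose levels in the gated cells of the libraries were 1.29-fold and 1.15-fold apart. The sequences are RefSeq's, build GRCm38.p6, from 250 bases before to 50 bases after the gene start, 5′ to 3′ on the gene's strand. Capitals mark E-boxes, the motif CANNTG, which reads the same way on both strands. Il21 lies at chr3:37232587-37232886 and Ascl2 at chr7:142969215-142969514, both on the minus strand.
Il21: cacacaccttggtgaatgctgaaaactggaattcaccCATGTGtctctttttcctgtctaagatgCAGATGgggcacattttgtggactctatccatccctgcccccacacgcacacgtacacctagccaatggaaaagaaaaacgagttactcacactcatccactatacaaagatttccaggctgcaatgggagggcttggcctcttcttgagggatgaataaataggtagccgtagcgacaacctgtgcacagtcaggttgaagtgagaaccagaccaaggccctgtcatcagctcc
Ascl2: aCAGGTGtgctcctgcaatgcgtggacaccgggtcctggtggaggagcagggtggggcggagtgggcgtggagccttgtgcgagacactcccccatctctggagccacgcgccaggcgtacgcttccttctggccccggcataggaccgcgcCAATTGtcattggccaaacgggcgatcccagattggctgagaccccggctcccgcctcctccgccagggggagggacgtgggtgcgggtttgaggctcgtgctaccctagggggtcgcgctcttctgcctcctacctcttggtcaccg
Each window held 2 matches, and the motif occurred in 72.3% of 32851 such windows, so a match is no mark of these genes. Of 16 genes looked up, 11 had a window in the table, and Cxcr5, Sostdc1, Icos, Sh2d1a and Maf had none.

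Gated cells of the libraries were compared with each other next. Of 7189 measured genes, 199 were higher (2.77%) and 105 lower (1.46%) in Id2-deficient gated cells. In ungated cells 495 of 10338 were higher (4.79%) and 523 lower (5.06%). With genes of 1 dominant cell left out as before, the 12 genes with the highest lower bounds in gated cells were mt-Atp6, mt-Co3, mt-Nd1, mt-Nd2, mt-Nd3, Rpl12, Rpl13a, Rpl23a, Rps15, Gm42418, AY036118 and Lars2. All are mt- genes, ribosomal protein genes or genes whose ratio was alike in ungated cells. For example, mt-Atp6 had a log2 ratio of 1.32 in gated and 1.72 in ungated cells, and Rps15 1.56 and 1.52. Among the 12 with the lowest upper bounds were Arl6ip5, Ass1, Cxcr6, Nt5m, Odc1, Rgcc, S100a6, Tmsb10, Txnip, Xpc and mt-Nd4l. Cxcr6 stood at 138 CPM in control and 57.8 CPM in Id2-deficient gated cells, and at 397 and 127 CPM in ungated cells. Odc1, the rate-limiting enzyme of polyamine synthesis, stood at 161 and 76.3 CPM in gated cells.

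Few Tfh genes passed 2-fold between the gated cells of the genotypes, which is also the rate over all genes. Of the transcription regulators 0 of 16 measured were called in either direction, of the help cytokines and ligands 0 of 6, and of the signalling and secreted genes 0 of 12. Below that line, 14 of the 16 regulators lay above 0 in log2 ratio with a median of 0.28, and 13 of 18 receptors with a median of 0.35, against -0.01 over all genes. Of the surface receptors 1 of 18 was higher, Cd83, with 49 UMIs in 22 Id2-deficient and 0 UMIs in the control gated cells. Tcf7 stood at 582 CPM in control and 587 CPM in Id2-deficient gated cells, a ratio of 1.01 (0.912 to 1.12). Tox stood at 182 and 189 CPM, a ratio of 1.04 (0.869 to 1.25). Sh2d1a stood at 574 and 542 CPM, and Icos at 212 and 296 CPM. Maf was the farthest apart of the regulators, at 403 and 746 CPM, 1.85-fold higher (1.65 to 2.08) in Id2-deficient gated cells. In ungated cells the same lists leaned toward the Id2-deficient library. There 5 of 15 regulators, 9 of 18 receptors, 3 of 6 help genes and 3 of 11 signalling genes were higher. Of these lists 1 gene was lower, Plac8 of the signalling genes. Over all genes of ungated cells 4.79% were higher and 5.06% lower.

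Some genes outside these lists differed between gated cells. Klf2 was 4.27-fold lower (3.46 to 5.27) and Il7r 2.82-fold lower (2.29 to 3.48) in Id2-deficient gated cells, and both were also lower in ungated cells, 2.47-fold and 1.56-fold. Both are among the genes left out of the rankings for 1 dominant cell. Of the 217 Klf2 UMIs of control gated cells, 121 lay in the 37 cells just inside the threshold. A Klf2 UMI was seen in 22.1% of control and 14.9% of Id2-deficient gated cells, or 17.2% and 6.07% at 2000 UMIs. Il22 stood at 32.6 CPM in control and 95.6 CPM in Id2-deficient gated cells, where 1 cell held 18.6% of its UMIs. In ungated cells its level was 1.53-fold lower in the Id2-deficient library, but 1 control cell held 68.6% of the control UMIs. By cells the order was the other way, with an Il22 UMI in 3.56% of control and 8.79% of Id2-deficient ungated cells, or 1.41% and 3.27% at 2000 UMIs. Of the cell cycle list 10 of 28 genes were lower and 1 higher in Id2-deficient gated cells, against 14 of 30 lower and 0 higher in ungated cells. Over all genes 1.46% were lower and 2.77% higher in gated cells, and 5.06% and 4.79% in ungated cells. The lowest of the list in gated cells was Ube2c (log2 ratio -3.57), of which 1 control cell held a large part of the UMIs, as given above. Of the E proteins, Tcf12, which encodes HEB, was 2.21-fold higher in Id2-deficient gated cells (32.6 against 72.3 CPM) and 2.35-fold higher in ungated cells. Tcf3, which encodes E2A, stood at 31.5 and 29.6 CPM.

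**Figure D5:**
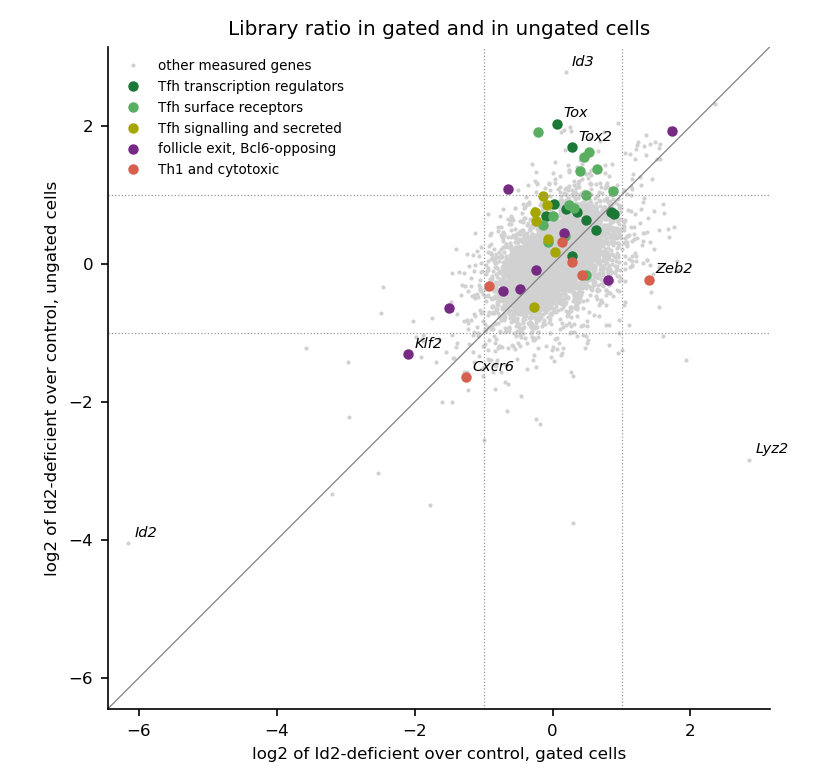
The log2 ratio of the Id2-deficient over the control library in gated cells (horizontal axis) and in ungated cells (vertical axis), for genes measured in all comparisons, with 5 lists in colour, dotted lines at 2-fold and Id2 at its floor of 3 counts in gated cells. Most Tfh genes lie near 0 across and above 0 upward, as for Tox at 0.06 and 2.04.

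Where the library ratio itself differed between gated and ungated cells was read from the difference of the 2 log2 ratios. Of 6396 genes measured in all groups, 132 had a ratio at least 2-fold higher in gated cells (2.06%) and 121 a ratio at least 2-fold lower (1.89%). Id3, the relative of Id2 that also restrains E proteins, gave the lowest upper bound of all. It stood at 27.3 CPM in control ungated cells and 188 CPM in Id2-deficient ungated cells, 6.90-fold higher (6.23 to 7.65), but at 203 and 231 CPM in gated cells, 1.14-fold higher (0.962 to 1.36). The difference of the log2 ratios was -2.60 (interval -2.88 to -2.31). Id3 was thus high in 3 of the 4 groups, and only the control ungated cells stood apart. The gate misses cells as depth falls, with shares of 3.49% and 18.5% at all UMIs and 1.16% and 5.38% at 2000 UMIs. Ungated cells can hold cells that the gate missed, and their part in the differences given here was not tested. The next lowest bounds, leaving out genes of which 1 cell held 10% or more of the UMIs of any group, were those of Izumo1r (-2.13), Tox (-1.98), Cd27 (-1.80) and Nsg2 (-1.78), all of them higher in Id2-deficient than in control ungated cells. Cd27, a costimulatory receptor, stood at 29.2 and 111 CPM in ungated and at 205 and 222 CPM in gated cells. For Il21 and Il4, which missed the filter in the control, the differences were -1.99 and -1.94.

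With the same genes left out, at the other end were Slbp (1.34), Rasl11a (1.46), Carhsp1 (interval 0.64 to 1.96), Ybx3 (1.21) and Itgb1 (0.85). The exclusion was added after the values were seen. Without it the 5 highest lower bounds were those of Lyz2, Igkc, Idi1, Pclaf and Hist1h1b, with differences from 2.00 to 5.68, and the 5 lowest upper bounds those of Id3, Izumo1r, Ube2c, Tox and Penk. In Lyz2 and Penk 1 cell held 94.1% and 52.7% of the UMIs of Id2-deficient gated cells, and 1 control ungated cell held 97.6% of the Igkc UMIs. With ungated cells weighted to the depth of the gated cells the differences of Igkc and Hist1h1b turned to -1.12 and -0.0214. Bhlhe40, a regulator of cytokine genes, was also left out, with a difference of 2.13 (1.46 to 2.81) and 14.8% of its control gated UMIs in 1 cell. Itgb1, the integrin β1 chain, stood at 927 and 359 CPM in control and Id2-deficient ungated cells and at 367 and 256 CPM in gated cells. Slbp, which binds histone mRNA in S phase, stood at 85.4 and 50.9 CPM in ungated and 88.6 and 134 CPM in gated cells. By list, 0 of 11 Tfh regulators had a higher and 2 a lower library ratio in gated than in ungated cells, with a median difference of -0.41. For receptors it was 0 of 14 higher and 3 lower (-0.66), and for signalling genes 0 of 7 higher and 2 lower (-0.87). Of the cell cycle genes 8 of 28 were higher and 2 lower (0.62), a median that turned to -0.58 with ungated cells weighted to the depth of the gated cells. The median over all genes was -0.02.

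Gated cells also varied among themselves. Il21 was seen in 35.3% of control gated cells (interval 27.3% to 43.9%) and in 126 of 315 Id2-deficient gated cells, and Il4 in 27.2% and 22.2%. Both occurred together in 14.0% and 13.3%, and at least 1 of them in 48.5% and 48.9%. Thinned to 2000 UMIs, Il21 was seen in 20.1% and 18.5% and Il4 in 14.2% and 9.27% of gated cells. In ungated cells Il21 was seen, unthinned, in 1.66% and 7.98%. Gated cells with an Il21 UMI held less Klf2 than those without, at 134 against 327 CPM in the control and 28.0 against 87.9 CPM in the Id2-deficient library. They held more Maf, at 603 against 280 CPM and 899 against 606 CPM. Their median depth was higher, 5189.5 against 4575.5 UMIs and 7478.5 against 6390 UMIs, and the part of depth in this was not tested. Klf2 was seen in 30 of 136 control gated cells, and 1 cell held a large part of its UMIs, as given above. The control Klf2 values can therefore depend on the side on which that cell fell.

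Markers of other cells that the gate could hold were summed. Of the B cell markers, Cd79a, Ms4a1 and Ebf1 gave 0 UMIs in the gated cells of both libraries. The list of 16 genes summed to 270 and 366 CPM in gated against 1391 and 715 CPM in ungated cells. The gate left out cells with a Cd79a UMI and the ungated set did not, so these sums are not on equal terms. Igkc was the lowest member in the control, at a log2 ratio of -6.06 of gated over ungated cells. It stood at 0.0029 when cells with a Cd79a UMI were left out of the ungated cells. Most of the gated sum was Ighm, at 210 and 282 CPM, which stood at 220 and 316 CPM in ungated cells. A UMI of any of the 16 was found in 64.0% of control gated and 39.7% of ungated cells, and in 75.9% and 75.6% in the Id2-deficient library. Cd22, a B cell receptor inhibitor, went against the rest of the list, with 34 UMIs in 20 Id2-deficient gated cells, 10.3-fold higher than in ungated cells, and 7 UMIs in 6 control gated cells. Of the γδ T cell list 8 of 10 genes in control and 3 of 10 in Id2-deficient gated cells were at 0, Trdc by the gate, and the sums were 4.66 and 31.5 CPM against 57.6 and 45.2 CPM in ungated cells. Of the CD8 T cell list Cd8a, Gzmk and Eomes were at 0 in both, with sums of 22.2 and 10.4 CPM against 107 and 85.1 CPM. The natural killer and innate lymphoid list summed to 277 and 147 CPM against 951 and 624 CPM, with Ncr1, Klre1 and Klra8 at 0 in the gated cells of both. This list also holds Gata3 and Il7r, and Il7r alone stood at 203 CPM in control gated cells. The control sum is thus mostly Il7r and no measure of innate cells alone. The plasma cell list summed to 52.5 and 67.1 CPM, with Mzb1 and Ighg1 at 0 in both. Of the myeloid list 7 of 12 genes in control and 4 of 12 in Id2-deficient gated cells were at 0, with sums of 187 and 143 CPM against 1227 and 186 CPM, and 1 Id2-deficient cell held 94.1% of the 68 Lyz2 UMIs. Cd4 was seen in 69.1% and 82.2% of gated cells, and Trac, the constant segment of the αβ receptor, stood at 1403 and 1293 CPM.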

How the data were processed

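The authors deposited, per the file headers, UMI counts per gene and cell barcode from Cell Ranger 5.0.1; per the submitters' processing notes it was Cell Ranger 1.3 with build mm10. The sources used here do not say how barcodes were filtered before deposit. Barcodes with at least 200 genes and at most 10% mt- UMIs were kept, 4925 control and 1934 Id2-deficient. Scrublet (scanpy 1.11.5) marked 2 and 8 of them as doublets, too few for it to have worked, so no doublets were removed and an alternative leaves out the 4% with the highest scores. Counts were summed per group, and ratios carry exact conditional binomial intervals, levels Poisson and shares Clopper-Pearson intervals at 95%, which cover counting error only. The ratio step was tested on simulated group sums with Poisson error alone. That test cannot show how the intervals hold where 1 cell carries many of a gene's UMIs. Thinning drew UMIs per cell without replacement. A count of 0 was set to 3 counts over the group for a ratio, and a share of 0 is given with the limit of 3 counts of its total in place of the interval.

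The gate, its members and all 26 gene lists were chosen with earlier results of these data known. Of 362 list symbols, 2 were not in the tables of 32285 genes. Named genes were the gate genes, Il21, Sostdc1, the Id and E proteins, and the 12 highest and 12 lowest genes of a comparison, leaving out genes where 1 cell held 10% or more of the UMIs of a library's gated cells. For the difference of library ratios the 5 highest and 5 lowest bounds were taken, with no such exclusion in the rule as fixed and with one over all 4 groups added later, and for each list up to 4 members; Tfh markers and second genes fixed with the design were added. Coordinates are those of GENCODE M21. Python 3.11.15, numpy 2.4.6, scipy 1.17.1, pandas 2.3.3 and matplotlib 3.10.9 were used. Values of some genes are not reported here.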

Additional observations from a re-analysis of the deposited data

How the results depend on the processing

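With 1 library per genotype nothing here separates genotype from library, and the gated cells' small total (857716 UMIs in the control) limits which genes could be measured. No paired analysis was possible because each genotype had 1 library. The ratio of gated shares, 5.29, lay between 4.58 and 5.90 under 8 alternatives and was 7.97 with at least 2 Cxcr5 UMIs. Counts of genes past 2-fold moved with the filter in all but the Id2-deficient gated against ungated comparison. With at least 20 expected UMIs there were 372 for gated against ungated cells in the control, 112 for the libraries in gated cells and 95 for the difference of the library ratios, in place of 667, 304 and 253. With at least 5 there were 1050, 632 and 550. With at least 2 Cxcr5 UMIs there were 387, 197 and 151, over fewer measured genes. Thinning gated cells to 2000 UMIs left 199 for the libraries. Against all other CD3 cells the Id2-deficient library gave 612 genes in place of 959. At 1.5-fold the 4 counts were 1728, 2177, 1287 and 1056. All other alternatives stayed within 1.5 times the counts given, among them depth weighting, mt- limits, Foxp3, B and CD8 T cell and doublet exclusions and scaling; leaving out Cd79a cells from ungated cells and Lyz2 cells from all was added after the data were seen. Of the single-gene values 6293 stayed within their counting interval, 783 moved beyond it and 25 past 2-fold changed sign; the cause was not tested. The signs that changed, as log2 ratios, were these. With ungated cells weighted to the gated depth, the Id2-deficient ratio of gated over ungated cells was -0.24 for Rrm2, -0.66 for Mki67, -0.0286 for Pclaf and -0.0923 for Hist1h1b, and the difference of library ratios was -1.12 for Igkc and -0.0214 for Hist1h1b. With gated cells thinned, the library ratio was -0.22 for Bach2 and -0.49 for Idi1. By means of per-cell CPM Lyz2 was at -1.61 in Id2-deficient gated over ungated cells, and with at least 2 Cxcr5 UMIs at -2.56, and at -2.43 between libraries. That gate also gave Bach2 at 0.24 in the control and -0.62 between libraries, and Il17f at -0.56 between libraries and -0.13 in the difference. Idi1 was at -0.0846 between libraries with Cxcr5 alone. Without the highest doublet scores Il2ra was at 0.19 between libraries and 0.32 in the difference, and Plac8 at 0.0946 in the difference. Without B or CD8 T cell UMIs the differences of Ccl5 and Igkc were 1.96 and -0.17. Igkc was also at -2.39 in the difference with 1% to 5% mt- UMIs, at 0.0153 in the Id2-deficient library against all other CD3 cells, and at 0.0029 in the control and -0.44 in the difference without Cd79a cells. Of the list medians 5 moved: 2 for the cell cycle with depth weighting (-0.50 and -0.58), 2 with at least 2 Cxcr5 UMIs (-0.55 in the control and 1.68 in the difference), and follicle exit in the control with Cxcr5 alone (-0.88). Shares of cells with a second gene moved in 41 cases and stayed in 15 when cells were thinned to 2000 UMIs, which lowers the chance of seeing a gene.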

Other observations

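The variable segments of the T cell receptor β chain were read as a further feature, after their values had been seen. A Trbv UMI was found in 69 of 136 control and 139 of 315 Id2-deficient gated cells, and 15 and 21 segments were seen. Trbv19 was found in 10.1% of the control gated cells with a Trbv UMI (Clopper-Pearson interval 4.18% to 19.8%) and in 23 of 1145 such ungated cells, 2.01%. In the Id2-deficient library it was found in 12.2% (7.29% to 18.9%) and 4.12% (2.32% to 6.71%). Trbv13-2 was found in 8.70% of gated and 10.0% of ungated control cells, and in 17.3% of gated (11.4% to 24.6%) and 9.62% of ungated Id2-deficient cells (6.79% to 13.1%). Trbv2 was found in 17.4% and 9.35% of control and Id2-deficient gated cells, and in 15.4% and 15.7% of ungated cells. Cells of 1 library can descend from few clones and animals, so these shares describe the libraries.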
